A study of Mus musculus with 64 samples.

Results

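Prostaglandin E2 (PGE2) acting on unstimulated wild-type (WT) natural killer (NK) cells is described here from 6 of the 64 libraries of the series, chosen by their labels. They are the 2 PGE2-treated, unstimulated WT libraries (replicates 2 and 4) and the 4 untreated, unstimulated WT libraries (replicates 1 to 4). The cells came from spleens of C57BL/6J mice, were cultured over 5 days in a low dose of IL-2 plus IL-15:IL-15Ra complexes, and then received PGE2 at 100 ng/ml for 5 h or no treatment for 5 h. Both groups therefore carried the cytokine culture. RNA was read by bulk 3' mRNA sequencing. The labels do not say whether replicates were separate animals or cultures, so the p-values measure the spread between these libraries, which may be technical. In bulk RNA, fewer cells of a type and less RNA per cell cannot be told apart.

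Unstimulated EP2KO, unstimulated DKO and stimulated WT cells are used for comparison, each with libraries of its own. EP2KO cells carry the Ptger2-/- and Ptger4fl/fl alleles and so lack the receptor EP2, and gave 4 PGE2 and 4 untreated libraries without stimulation. DKO cells carry the same alleles with Cre driven from Gzmb, which deletes the receptor EP4 in cells that express Gzmb, and gave 3 PGE2 and 3 untreated libraries without stimulation. Stimulated WT cells had 1 h of PGE2 or of no treatment, then 4 h of antibody stimulation through the activating receptor NK1.1, and gave 4 PGE2 and 4 untreated libraries. Unstimulated WT cells given medium conditioned by PGE2-producing BRAFV600E tumour cells (CM, 5 h, 4 libraries) are set against PGE2 directly.

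PGE2 is a lipid mediator made by cyclooxygenases and abundant in many tumours and inflamed tissues. Its receptors EP2 and EP4 couple to the stimulatory G protein, which raises cyclic AMP (cAMP), activates protein kinase A (PKA) and leads to phosphorylation of the transcription factor CREB. In NK cells this pathway is known for dampening killing and cytokine release.

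The 2 PGE2 libraries held 1137647 and 1172359 counts, and the 4 untreated libraries held 1352953, 1214363, 1026568 and 1195292. Over all 64 libraries the totals ran between 753973 and 1693750, and 10723 of 36273 genes were tested. Levels are CPM, counts scaled to an effective library total of 1000000, so 1 CPM is close to 1 count. The share of mitochondrially encoded genes was 11.1% and 10.5% in the PGE2 libraries, against 7.28%, 10.1%, 9.61% and 8.69% in the untreated libraries, and so higher in both PGE2 libraries than in any untreated one. The part of this difference in the results was not tested.

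Markers of NK cells were all measured, and summed to 8087 and 10158 CPM in PGE2 replicates 2 and 4. Untreated replicates 1 to 4 had sums of 11444.6, 10688, 10883.5 and 12097 CPM. Replicate 2 had the lowest sum in both groups and in each of the other 4 WT groups of the series. Replicate 2 is 1 of the 2 PGE2 libraries but 1 of the 4 untreated ones, and the part of this imbalance in the lower sums was not tested. Of the 13 NK cell markers, 2 were called lower with PGE2 (Ncr1 and Klrb1c, 15.4%, against 1.05% of all tested genes) and 0 higher. Not all markers were lower: Il2rb had 976 and 1092 CPM with PGE2, against 790, 839, 840 and 847 CPM untreated. Klre1, Gzma, Prf1 and Tbx21 overlapped between groups, and the remaining markers were lower in both PGE2 libraries. T cell markers summed to between 433 and 612 CPM with PGE2 and between 494 and 619 CPM untreated. Macrophage and dendritic cell markers summed to between 122 and 255 CPM with PGE2 and between 125 and 250.01 CPM untreated, with Fcgr1 and Mrc1 at 0 counts in all 6 libraries. Neutrophil markers summed to 398 and 76.7 CPM in PGE2 replicates 2 and 4, against 64.9, 296, 100.2 and 54.4 CPM in untreated replicates 1 to 4. Replicate 2 thus stood apart in both groups, led by S100a8, Mpo and Elane, and it also had the highest sum in each of the other 4 WT groups of the series. Macrophage and dendritic cell markers were likewise highest in replicate 2 of both groups. Erythroid and platelet markers reached at most 29.1 CPM with PGE2 and 25.3 CPM untreated, and melanoma markers at most 3.42 CPM with PGE2 and 3.16 CPM untreated. Markers of type 2 and type 3 innate lymphoid cells summed to between 92.3 and 97.6 CPM with PGE2 and between 91.6 and 107 CPM untreated, with Il22 at 0 counts. B cell markers were lower in both PGE2 libraries, with sums between 32.8 and 47.1 CPM, against 67.1 to 94.0 CPM untreated. Of the 10 B cell markers only Ighm, the mu heavy chain, passed the filter on low counts, and Cd79a and Cd22 were at 0 counts in all 6 libraries.

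PGE2 changed 318 genes in resting WT cells, 205 higher and 113 lower, which are 1.91% and 1.05% of the 10723 genes tested (edgeR quasi-likelihood test, called at a Benjamini-Hochberg adjusted p under 0.05). The rises with the smallest p-values included Stat3, Rgs2, Crem, Parp8 and P2ry10, and the falls were led by Ptpn6, the phosphatase SHP-1, and Ncr1, the activating receptor NKp46. Of the risen genes 100 changed by over 2-fold and 23 by over 4-fold, with a median log2 fold change of 0.98. Of the fallen genes 54 changed by over 2-fold and 7 by over 4-fold, with a median of -0.97. Over all tested genes the median log2 fold change was 0.01. The 2 PGE2 libraries did not overlap the 4 untreated libraries for 204 of the risen and all 113 fallen genes, which reads beside 1402 higher and 1263 lower genes without overlap among all those tested. The exception was Tbc1d9b, named after its values were seen. Lack of overlap in a called gene, where given below, is therefore no separate evidence. Tbc1d9b lost its call without PGE2 replicate 2 (adjusted p = 0.874) and without untreated replicate 1 (adjusted p = 0.152). The same held without untreated replicate 4 (adjusted p = 0.186). Its call also ended with no count filter (adjusted p = 0.0648), with only the 6 libraries fitted (adjusted p = 0.0721) and with untreated replicates 2 and 4 only (adjusted p = 0.174). The risen genes together held 39071 CPM with PGE2 and 19965 CPM untreated, and the fallen genes held 10024 CPM with PGE2 and 18224 CPM untreated.

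The count rests on both PGE2 libraries. With PGE2 replicate 2 left out 132 genes were called, 127 of them among the 318, and with PGE2 replicate 4 left out 163 were called, 154 of them among the 318. With both replicate 2 libraries left out, an alternative chosen after seeing the neutrophil markers, 99 genes were called (73 higher, 26 lower), 97 of them among the 318. All 318 genes kept their direction in these 3 fits, and the part of the neutrophil markers in the results was not otherwise tested. Without untreated replicate 1, the risen genes numbered 125. Of the 108 called genes named for their effect in unstimulated WT cells, 35 kept their call under every alternative run, 65 lost it when 1 of the PGE2 libraries was left out, and none reversed. The other 8 (Acsl3, Asb2, Flt3l, Ikzf2, Il12rb2, Ltb, Myc and Pde4d) lost it only without both replicate 2 libraries. Most of the 65 also lost it in that fit, and the losses listed gene by gene below leave that fit out.

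**Figure D1:**
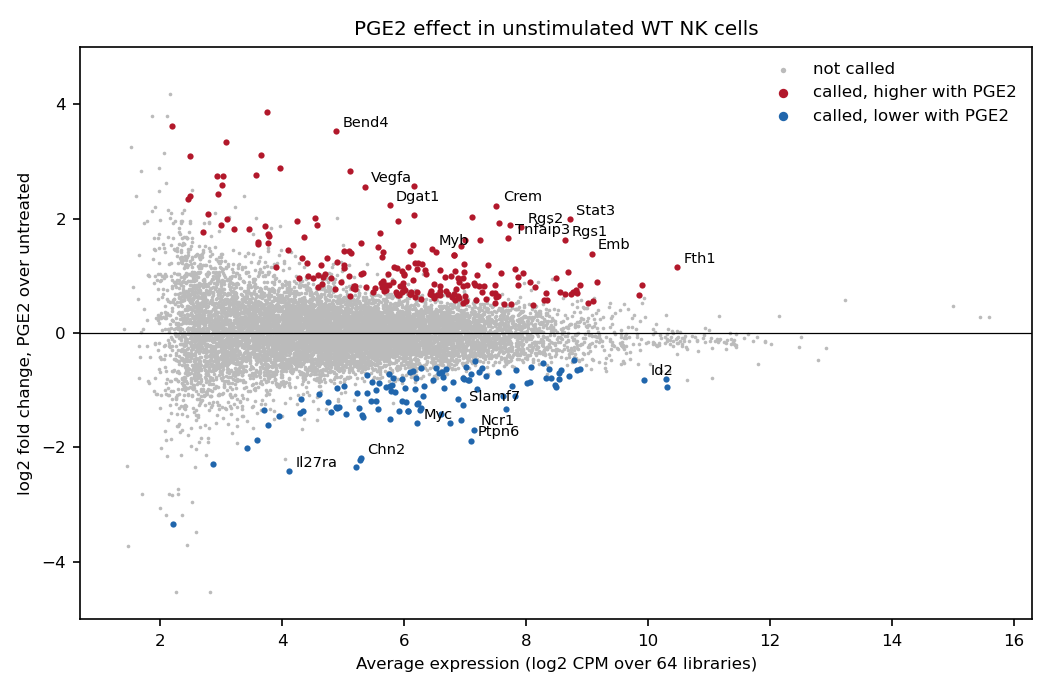
Each point is 1 of the 10723 tested genes. The x axis is its average expression (log2 CPM over 64 libraries) and the y axis its log2 fold change, PGE2 over untreated, in unstimulated WT cells. The 205 risen genes (red) and 113 fallen genes (blue) lie on both sides of 0, and Stat3, Emb and Fth1 combine a high level with a rise.

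The receptors that read PGE2 were present at low levels in both groups. Ptger2, which encodes EP2, had 4.32 and 6.08 CPM in the PGE2 libraries, against 7.27, 5.58, 3.81 and 3.32 CPM in the untreated libraries. Ptger4, which encodes EP4, had 25.9 and 13.9 CPM in the PGE2 libraries, against 14.5, 29.5, 21.9 and 24.9 CPM in the untreated libraries. The groups overlapped for both genes, and neither passed the test (log2 fold changes 0.03 ± 0.47 for Ptger2 and -0.18 ± 0.29 for Ptger4, adjusted p = 0.99 and 0.823). Their signs turned with single libraries: Ptger2 had a log2 fold change of -0.25 and Ptger4 one of 0.18 without PGE2 replicate 4. Of 31 tested genes of EP receptors and cAMP-PKA machinery, 2 rose (6.45%, against 1.91% of all tested genes) and 0 fell, with a median of 0.04. These were Sik3, a kinase that PKA inhibits, at 0.71 ± 0.20, adjusted p = 0.0255, and Arrb1, which encodes beta-arrestin 1 and uncouples activated receptors, at 0.97 ± 0.25, adjusted p = 0.0139. The threshold was missed without PGE2 replicate 2 for Sik3 and Arrb1 (adjusted p between 0.0573 and 0.254) and without PGE2 replicate 4 for Sik3 and Arrb1 (adjusted p between 0.151 and 0.213). Losses were also seen without untreated replicate 1 for Sik3 (adjusted p = 0.147). Calls ended too with no count filter for Sik3 and Arrb1 (adjusted p between 0.0934 and 0.258), with the replicate block for Sik3 (adjusted p = 0.0611), with only the 6 libraries fitted for Sik3 (adjusted p = 0.0682), with only the 10 unstimulated WT libraries fitted for Sik3 (adjusted p = 0.0511) and with untreated replicates 2 and 4 only for Sik3 (adjusted p = 0.261). Gnas, which encodes the stimulatory G protein subunit, was abundant in both groups at 674 ± 93.4 CPM with PGE2 and 636 ± 47.4 CPM untreated (SD, n = 2 and 4) and was not called (0.09 ± 0.14, adjusted p = 0.823), with a log2 fold change of -0.082 without PGE2 replicate 4. Of 8 tested genes of prostanoid synthesis, transport and other prostanoid receptors, 0 were called by edgeR, 0 by DESeq2 and 0 at an unadjusted p under 0.05.

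Genes known as targets of the cAMP-PKA-CREB pathway held 9 risen members and 1 fallen one among 28 tested, which is 32.1% and 3.57%, against 1.91% and 1.05% of all tested genes. Their median log2 fold change was 0.26, against 0.01 over all genes. Like every gene list used here, this one was chosen with earlier results of these data known. Its share of calls is thus a description, not a test of enrichment. The same list had 10 rises and 1 fall in EP2KO cells, where 1.75% and 1.40% of all tested genes rose and fell, and 0 calls in DKO cells. It had 9 rises and 6 falls in stimulated WT cells, where 6.00% of all genes rose and 9.63% fell. The medians of the list were 0.43 in EP2KO, 0.18 in DKO and -0.01 in stimulated WT cells. Crem (chr18:3266048-3337748, GRCm38), a CREB-family gene whose short ICER products repress cAMP-induced transcription, had 346 and 479.7 CPM in the PGE2 libraries, against 103, 76.6, 87.7 and 83.9 CPM in the untreated libraries. Every PGE2 library stood above every untreated one, at a log2 fold change of 2.23 ± 0.21, adjusted p = 5.89e-12. Fosl2, an AP-1 subunit, had 369 and 455 CPM in the PGE2 libraries, against 109, 104, 126 and 106 CPM in the untreated libraries. That is a log2 fold change of 1.89 ± 0.23, adjusted p = 1.42e-08, again with no overlap. Sik1, a kinase induced by cAMP that restrains CREB coactivators, averaged 34.2 ± 5.38 CPM with PGE2 and 13.9 ± 4.57 CPM untreated (SD, n = 2 and 4; 1.31 ± 0.31, adjusted p = 0.00514). Nfil3, a transcription factor that NK cell development requires, averaged 71.5 ± 5.80 CPM with PGE2 and 37.9 ± 4.61 CPM untreated (0.91 ± 0.25, adjusted p = 0.022). The fallen member was the immediate early gene Egr1, at 12.6 ± 3.01 CPM with PGE2 and 32.3 ± 5.27 CPM untreated (-1.35 ± 0.32, adjusted p = 0.00716). The test was not passed without PGE2 replicate 2 for Sik1 and Nfil3 (adjusted p between 0.127 and 0.22) and without PGE2 replicate 4 for Nfil3 and Egr1 (adjusted p between 0.158 and 0.201). More calls were lost without untreated replicate 1 for Sik1 (adjusted p = 0.0545), without untreated replicate 2 for Nfil3 (adjusted p = 0.0515), without untreated replicate 3 for Nfil3 (adjusted p = 0.0568) and without untreated replicate 4 for Nfil3 (adjusted p = 0.057). Calls also ended with untreated replicates 2 and 4 only for Sik1 and Nfil3 (adjusted p between 0.0941 and 0.135).

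Genes that restrain cAMP and G protein signalling were among the risen genes. Phosphodiesterases degrade cyclic nucleotides, and 3 of 9 tested genes rose (33.3%, against 1.91% of all tested genes) and 0 fell, with a median of 0.43. Pde4b had 130.5 and 110.4 CPM in the PGE2 libraries, against 45.1, 55.03, 54.3 and 54.8 CPM in the untreated libraries. Pde4d, like Pde4b a cAMP-specific enzyme, had 82.1 and 64.3 CPM in the PGE2 libraries, against 31.2, 20.7, 37.2 and 21.6 CPM in the untreated libraries. Both genes were higher in each PGE2 library than in any untreated one, at log2 fold changes of 1.20 ± 0.18 and 1.41 ± 0.23 (adjusted p = 2.15e-06 and 1.62e-05). Pde5a, which is specific for cyclic GMP, had 26.8 and 13.04 CPM in the PGE2 libraries, against 2.91, 3.19, 5.72 and 0 CPM in the untreated libraries, and was called at 2.75 ± 0.56, adjusted p = 0.00067. Pde5a lost its call without PGE2 replicate 2 (adjusted p = 0.211). The other 6 phosphodiesterase genes had log2 fold changes between -0.19 and 0.48 and were not called. RGS proteins speed the switching off of G protein alpha subunits. Rgs2 (chr1:143999338-144004161) had 466 and 519 CPM in the PGE2 libraries, against 114, 148, 148 and 139 CPM in the untreated libraries. Rgs1 (chr1:144242296-144249242) had 479 and 450.2 CPM in the PGE2 libraries, against 141, 168, 167 and 128 CPM in the untreated libraries. Rgs10 went the other way, with 34.6 and 29.5 CPM in the PGE2 libraries, against 83.6, 80.6, 70.5 and 88.1 CPM in the untreated libraries. The 3 genes were called at log2 fold changes of 1.85 ± 0.17, 1.62 ± 0.18 and -1.33 ± 0.24, and the other 6 of 9 tested RGS genes were not. In this list 22.2% rose and 11.1% fell, against 1.91% and 1.05% of all tested genes.

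Promoter sequence of some of these genes is shown because CREB binds a known element, TGACGTCA, or its 5-base core TGACG. The stretches are the 250 bases before the RefSeq gene start in GRCm38.p6, printed on the gene's strand with each match to the core, on either strand, in capitals. They lie at chr1:144004150-144004399 (minus strand) for Rgs2, chr4:102421305-102421554 (plus strand) for the first of 4 Pde4b starts, chr4:132075314-132075563 (minus strand) for Epb41 and chr11:100939541-100939790 (minus strand) for Stat3.
Rgs2: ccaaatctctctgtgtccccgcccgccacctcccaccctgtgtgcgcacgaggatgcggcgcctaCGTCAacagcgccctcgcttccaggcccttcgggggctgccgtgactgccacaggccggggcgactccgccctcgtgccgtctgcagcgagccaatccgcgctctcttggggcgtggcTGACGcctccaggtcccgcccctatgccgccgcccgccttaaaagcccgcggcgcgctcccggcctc
Pde4b: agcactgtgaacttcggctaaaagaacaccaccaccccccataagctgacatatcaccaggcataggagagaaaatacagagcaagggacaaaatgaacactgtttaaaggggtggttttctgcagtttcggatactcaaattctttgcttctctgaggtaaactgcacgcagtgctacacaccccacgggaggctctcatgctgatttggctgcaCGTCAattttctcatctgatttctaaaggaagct
Epb41: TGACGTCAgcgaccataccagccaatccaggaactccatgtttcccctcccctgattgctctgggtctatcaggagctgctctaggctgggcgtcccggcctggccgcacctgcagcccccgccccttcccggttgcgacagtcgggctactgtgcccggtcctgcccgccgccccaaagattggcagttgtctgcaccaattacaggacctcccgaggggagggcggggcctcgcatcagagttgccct
Stat3: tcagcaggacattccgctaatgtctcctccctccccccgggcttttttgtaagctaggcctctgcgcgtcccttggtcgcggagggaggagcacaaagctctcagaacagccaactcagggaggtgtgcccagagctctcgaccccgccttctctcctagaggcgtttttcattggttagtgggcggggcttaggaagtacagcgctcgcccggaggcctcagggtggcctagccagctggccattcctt
The Rgs2 stretch holds 2 cores and that of Pde4b 1, while the windows at the other 3 Pde4b starts hold 0. The windows of Fosl2, Pde4d, Pde5a and Rgs10 also hold 0 cores, and that of Nfil3 holds 1. Epb41, a cytoskeletal protein gene, was chosen after its values were seen because it is 1 of 2 risen genes whose window holds the full TGACGTCA, the other being Baz2b. The log2 fold changes were 0.72 ± 0.16, adjusted p = 0.00273 for Epb41 and 0.65 ± 0.19, adjusted p = 0.0451 for Baz2b. Calls were lost without PGE2 replicate 2 for Baz2b (adjusted p = 0.636) and without PGE2 replicate 4 for Epb41 and Baz2b (adjusted p between 0.0805 and 0.0871). More calls were lost without untreated replicate 1 for Baz2b (adjusted p = 0.0819), without untreated replicate 2 for Baz2b (adjusted p = 0.0906), without untreated replicate 3 for Baz2b (adjusted p = 0.0568) and without untreated replicate 4 for Baz2b (adjusted p = 0.16). The threshold was also missed with RLE scaling for Baz2b (adjusted p = 0.0604), with no count filter for Baz2b (adjusted p = 0.0676) and with untreated replicates 2 and 4 only for Baz2b (adjusted p = 0.0715). The Stat3 stretch holds no match, which says only that these letters are not in this window. Windows of 300 bases (250 before and 50 after the start) were found by symbol for 157 risen, 88 fallen and 8009 tested genes. The full element, counted on both strands, was in 1.27% of the risen genes with a window, 1.14% of the fallen genes and 3.98% of the tested genes. The core, which the full element also holds, was in 40.1% of the risen, 28.4% of the fallen and 38.1% of the tested genes, and in 23.05% of all 27025 genes with a window. A match is a description of sequence, not a binding site.

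The largest rises outside that list included transcription factors, enzymes and transporters. Bend4, a gene of the BEN domain family, had 44.9 and 60.8 CPM in the PGE2 libraries, against 6.54, 4.79, 1.91 and 4.15 CPM in the untreated libraries. Stat3 (chr11:100885098-100939540), which transmits signals of IL-6, IL-10 and IL-21 receptors, had 714 and 719.6 CPM in the PGE2 libraries, against 203, 179, 193 and 146 CPM in the untreated libraries. The libraries of the groups were far apart for both genes, with log2 fold changes of 3.53 ± 0.44 and 1.99 ± 0.15 (adjusted p = 2.81e-08 and 1.55e-15). Parp8, of the ADP-ribosyltransferase family, had 321 and 230.3 CPM in the PGE2 libraries, against 64.7, 65.4, 80.03 and 58.98 CPM in the untreated libraries. Camk4, a calcium- and calmodulin-dependent kinase that can phosphorylate CREB, had 119 and 136 CPM in the PGE2 libraries, against 39.97, 27.9, 37.2 and 24.9 CPM in the untreated libraries. Abcb1b, which encodes a P-glycoprotein drug exporter, had 407 and 524 CPM in the PGE2 libraries, against 140.3, 107, 134 and 108 CPM in the untreated libraries. The log2 fold changes of these 3 were 2.04 ± 0.20, 1.97 ± 0.24 and 1.93 ± 0.27. No PGE2 library overlapped an untreated one for any of them, which the choice of the 15 largest rises required. Abcb1b has the close paralog Abcb1a, so its count is uncertain where reads cannot be told apart. Also among the 15 largest were Ier5l at 2.83 ± 0.38, the iron carrier transferrin Trf at 2.06 ± 0.24, the anion channel subunit Lrrc8d at 1.89 ± 0.25, the semaphorin receptor Plxnc1 at 1.96 ± 0.35 and the sterol sulfotransferase Sult2b1 at 2.004 ± 0.40. Sult2b1 lost its call without PGE2 replicate 4 (adjusted p = 0.108), and the other genes of this paragraph kept theirs under the alternatives run.

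**Figure D2:**
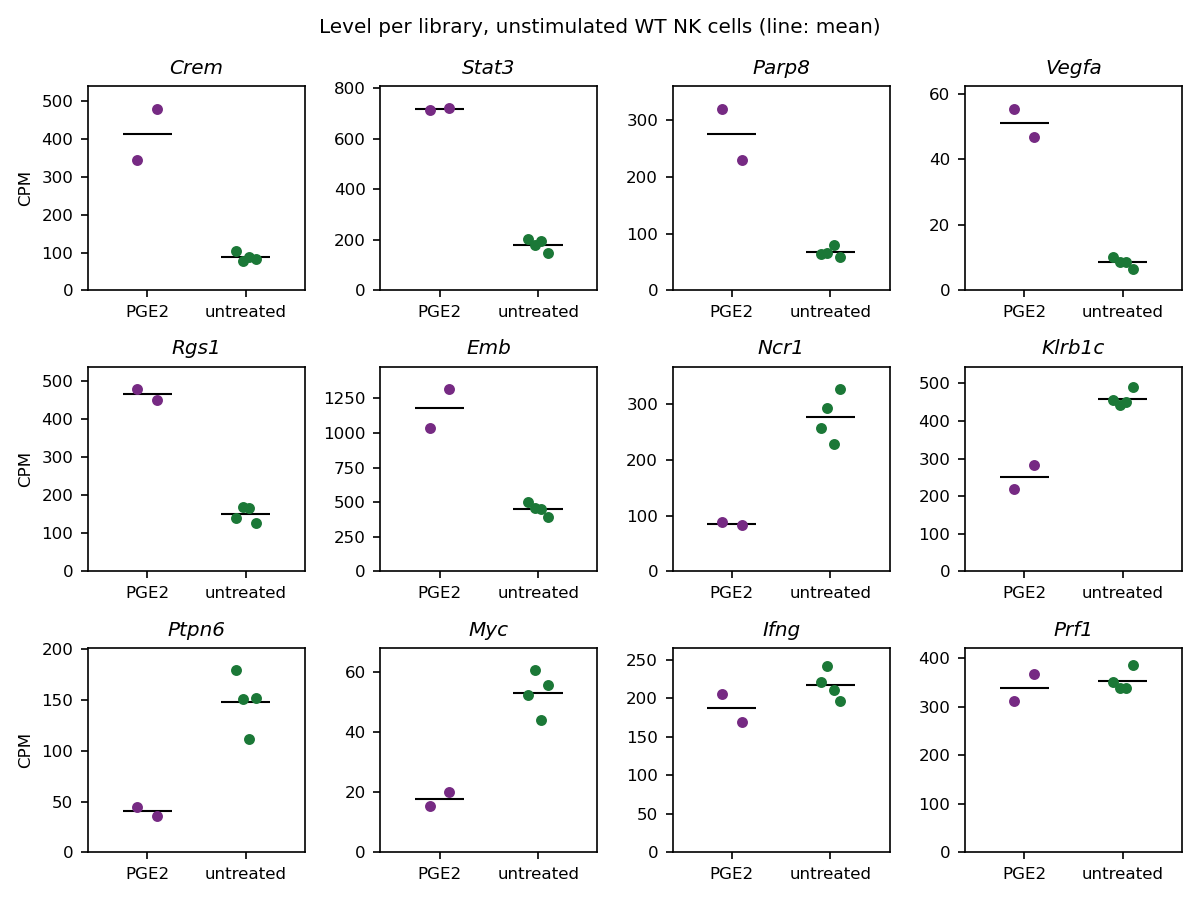
Levels of 12 genes in each library of unstimulated WT cells, in CPM, with PGE2 (2 points) left of untreated (4 points) and a line at each mean. Crem, Stat3, Parp8, Vegfa, Rgs1 and Emb are higher in both PGE2 libraries than in any untreated one, Ncr1, Klrb1c, Ptpn6 and Myc are lower in both, and Ifng and Prf1 overlap.

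In absolute terms the gains were led by abundant genes. Fth1, which encodes the iron-storing ferritin heavy chain, had 1862 and 3198 CPM in the PGE2 libraries, against 1162, 1136, 1045 and 1225 CPM in the untreated libraries. Its 2 PGE2 libraries lay far from each other, and without PGE2 replicate 4 its log2 fold change was 0.69 (adjusted p = 0.218), against 1.15 ± 0.22 with both. Emb, the adhesion protein embigin, had 1038 and 1320.2 CPM in the PGE2 libraries, against 501, 455, 448 and 395 CPM in the untreated libraries, a log2 fold change of 1.39 ± 0.18, adjusted p = 9.72e-08. Ifngr1, the ligand-binding chain of the interferon-gamma receptor, had 1760.3 and 1909 CPM in the PGE2 libraries, against 1148, 1063, 1202 and 1216 CPM in the untreated libraries. Ifngr1 was called at 0.66 ± 0.17, adjusted p = 0.0113, with no overlap between groups. Ifngr1 lost its call without PGE2 replicate 2 (adjusted p = 0.0831) and without PGE2 replicate 4 (adjusted p = 0.162). Its call also ended with untreated replicates 2 and 4 only (adjusted p = 0.0614).

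Hypoxia-inducible factor genes and lipid genes held risen members and no fallen ones. The list of hypoxia-inducible factor targets, which also counts the factor's own subunit gene Hif1a, held 18 tested genes. Of these 4 rose, Hif1a among them (22.2%, against 1.91% of all tested genes), with a median log2 fold change of 0.28. Vegfa (chr17:46016993-46032369), the vascular endothelial growth factor, had 55.3 and 46.9 CPM in the PGE2 libraries, against 10.2, 8.77, 8.57 and 6.65 CPM in the untreated libraries. Ndrg1, a stress-induced gene, had 109 and 136 CPM in the PGE2 libraries, against 47.96, 37.5, 53.4 and 45.7 CPM in the untreated libraries. Hif1a, the oxygen-regulated subunit itself, had 256 and 241 CPM in the PGE2 libraries, against 138, 103, 120.05 and 116 CPM in the untreated libraries. The 3 genes did not overlap between groups and were called at 2.56 ± 0.28, 1.41 ± 0.22 and 1.06 ± 0.16. Mxi1, a MAX partner that opposes MYC, was called at 0.86 ± 0.24, adjusted p = 0.0341. Mxi1 lost its call without PGE2 replicate 2 (adjusted p = 0.118) and without PGE2 replicate 4 (adjusted p = 0.277). The same held without untreated replicate 1 (adjusted p = 0.069) and without untreated replicate 2 (adjusted p = 0.128). Its call also ended with no count filter (adjusted p = 0.155) and with untreated replicates 2 and 4 only (adjusted p = 0.0893). Ldha, the glycolytic enzyme lactate dehydrogenase A and also a target, had 423 and 655 CPM in the PGE2 libraries, against 788, 628, 576 and 803 CPM in the untreated libraries, overlapped between groups and was not called (-0.38 ± 0.25, adjusted p = 0.516). Of 21 tested triglyceride and lipid droplet genes 3 rose (14.3%), with a median of 0.34. Dgat1 (chr15:76502015-76511953), which catalyses the last step of triglyceride synthesis, had 119 and 150.4 CPM in the PGE2 libraries, against 36.3, 29.5, 23.8 and 23.3 CPM in the untreated libraries, a log2 fold change of 2.24 ± 0.23, adjusted p = 9.47e-11. The acyl-CoA synthetases Acsl3 and Acsl4 were called at 1.69 ± 0.34 and 0.58 ± 0.17. Acsl4 lost its call without PGE2 replicate 2 (adjusted p = 0.436) and without PGE2 replicate 4 (adjusted p = 0.164). The same held without untreated replicate 1 (adjusted p = 0.177), without untreated replicate 2 (adjusted p = 0.123) and without untreated replicate 4 (adjusted p = 0.083). Its call also ended with RLE scaling (adjusted p = 0.0594), with no count filter (adjusted p = 0.225), with only the 6 libraries fitted (adjusted p = 0.0548) and with untreated replicates 2 and 4 only (adjusted p = 0.11). Of 24 tested sterol and fatty acid synthesis genes 0 were called by edgeR and 0 by DESeq2, with 2 at an unadjusted p under 0.05.

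The activating receptors and adaptors of NK cells held fallen members and no risen ones. Of 25 tested, 7 fell (28.0%, against 1.05% of all tested genes) and 0 rose, with a median log2 fold change of -0.42. Ncr1 (chr7:4337724-4345164) had 88.1 and 83.4 CPM in the PGE2 libraries, against 258, 293, 228 and 327 CPM in the untreated libraries. Klrb1c, which encodes NK1.1, the receptor engaged in the stimulated cells, had 218 and 282 CPM in the PGE2 libraries, against 455, 441, 449.7 and 489 CPM in the untreated libraries. Each PGE2 library was below each untreated library for both, at -1.69 ± 0.21, adjusted p = 1.41e-08 for Ncr1 and -0.88 ± 0.17, adjusted p = 0.000288 for Klrb1c. The related Klrb1a had 44.1 and 41.7 CPM in the PGE2 libraries, against 90.8, 120.4, 114 and 118 CPM in the untreated libraries (-1.37 ± 0.20), and Klrb1f was called at -0.80 ± 0.21. Members of the Klrb1 family are similar in sequence, and reads shared between them would make single counts uncertain. Cd244a, the receptor 2B4, had 26.8 and 26.9 CPM in the PGE2 libraries, against 77.03, 77.4, 59.1 and 90.6 CPM in the untreated libraries. Slamf7, also of the SLAM family, had 35.4 and 33.9 CPM in the PGE2 libraries, against 77.03, 82.1, 85.7 and 86.4 CPM in the untreated libraries. Cd160, which binds class I molecules and HVEM, had 33.7 and 49.5 CPM in the PGE2 libraries, against 147, 115, 91.5 and 121 CPM in the untreated libraries. These were called at -1.501 ± 0.24, -1.25 ± 0.23 and -1.51 ± 0.33. The 18 members that were not called included Klrk1, the receptor NKG2D, at -0.33 ± 0.15, and the signalling adaptors Tyrobp at -0.54 ± 0.21, Fcer1g at -0.55 ± 0.22 and Hcst at -0.29 ± 0.18, chosen for their role. Calls were lost without PGE2 replicate 2 for Klrb1c, Klrb1f and Cd160 (adjusted p between 0.0864 and 0.213) and without PGE2 replicate 4 for Klrb1f (adjusted p = 0.186). The uncalled Klrk1, Tyrobp and Fcer1g were called under some alternatives, and none of the 4 changed sign. The summed NK cell markers, of which Ncr1 and Klrb1c are 2 of 13, were lower in both PGE2 libraries as given above, and the part of NK cell content was not tested. The same 25 genes had 8 falls and 0 rises in EP2KO cells, 0 calls in DKO cells, and 7 falls and 1 rise in stimulated WT cells, with medians of -0.34, -0.06 and -0.24.

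Signalling genes near these receptors moved in both directions. Ptpn6 (chr6:124720707-124738714), which encodes the phosphatase SHP-1 recruited by inhibitory receptors, had 44.9 and 35.6 CPM in the PGE2 libraries, against 179, 151, 111 and 151 CPM in the untreated libraries. That fall, -1.88 ± 0.19, adjusted p = 4.88e-11, left every PGE2 library below every untreated one. Ubash3b, a phosphatase of receptor signalling, fell at -0.75 ± 0.19. Among the same 25 negative regulators 3 rose: the phosphatases Dusp5 at 1.12 ± 0.18 and Ptpn22 at 0.68 ± 0.15, and the ubiquitin ligase Cblb at 0.66 ± 0.19. In this list 12% rose and 8% fell, against 1.91% and 1.05% of all tested genes. Of 21 tested proximal kinases and linkers 1 fell and 1 rose (4.76% each), with a median of -0.35. Lck, a Src-family kinase, averaged 113 ± 30.5 CPM with PGE2 and 222 ± 16.1 CPM untreated (SD, n = 2 and 4; -0.97 ± 0.22, adjusted p = 0.00326). Pik3r1, the regulatory subunit of phosphoinositide 3-kinase, averaged 675 ± 8.32 CPM with PGE2 and 416 ± 39.4 CPM untreated (0.70 ± 0.16, adjusted p = 0.00292). Of 19 tested inhibitory receptors Tigit rose and Cd96 fell (5.26% each), at 1.81 ± 0.51 and -0.62 ± 0.17. Tigit was scarce, with 13.8 and 11.3 CPM in the PGE2 libraries, against 0.727, 3.99, 4.76 and 4.98 CPM in the untreated libraries. The threshold was missed without PGE2 replicate 2 for Ubash3b, Ptpn22, Cblb, Lck, Pik3r1, Tigit and Cd96 (adjusted p between 0.0763 and 0.583) and without PGE2 replicate 4 for Cblb, Pik3r1 and Tigit (adjusted p between 0.0543 and 0.104). Losses were also seen without untreated replicate 1 for Cblb, Tigit and Cd96 (adjusted p between 0.0569 and 0.16), without untreated replicate 2 for Cblb and Tigit (adjusted p between 0.0507 and 0.0584) and without untreated replicate 4 for Cblb and Cd96 (adjusted p between 0.057 and 0.105). Further losses came with no count filter for Cd96 (adjusted p = 0.163) and with untreated replicates 2 and 4 only for Cblb, Tigit and Cd96 (adjusted p between 0.106 and 0.241).

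Genes of the killing machinery changed in both directions. Of 28 tested cytotoxic effectors and granule genes 2 rose and 4 fell, 7.14% and 14.3%, against 1.91% and 1.05% of all tested genes, with a median of -0.09. Prf1, which encodes perforin, had 311 and 367 CPM in the PGE2 libraries, against 349.5, 338, 337 and 385 CPM in the untreated libraries. The groups overlapped, and the log2 fold change of -0.06 ± 0.22 turned to 0.057 without PGE2 replicate 2. Gzmb, the serine protease granzyme B, had 1130.3 and 1425 CPM in the PGE2 libraries, against 2359, 1961, 2012 and 2502 CPM in the untreated libraries. Both PGE2 libraries were lower, but edgeR did not call it (-0.79 ± 0.29, adjusted p = 0.145); with only the 6 libraries in the fit the adjusted p was 0.00502, and over all alternatives it lay between 0.000123 and 0.764. The fallen members were the cathepsins Ctsw and Ctsd, the cystatin Cst7 and the death ligand Tnfsf10, at -0.52 ± 0.14, -0.70 ± 0.18, -0.86 ± 0.25 and -1.19 ± 0.29. The risen members were the protease inhibitor Serpinb6b at 0.84 ± 0.22 and the lysosomal trafficking gene Lyst at 0.99 ± 0.26. Lyst had 264 and 122 CPM in the PGE2 libraries, against 93.02, 110.1, 103 and 82.2 CPM in the untreated libraries, far higher in 1 PGE2 library than in the other. The test was not passed without PGE2 replicate 2 for Ctsw, Ctsd, Cst7, Serpinb6b and Lyst (adjusted p between 0.0892 and 0.945) and without PGE2 replicate 4 for Ctsw, Ctsd, Cst7, Tnfsf10 and Serpinb6b (adjusted p between 0.0934 and 0.215). More calls were lost without untreated replicate 1 for Cst7 and Lyst (adjusted p between 0.0629 and 0.0759), without untreated replicate 2 for Serpinb6b (adjusted p = 0.0751) and without untreated replicate 4 for Cst7, Serpinb6b and Lyst (adjusted p between 0.054 and 0.088). Calls ended too with no count filter for Ctsw (adjusted p = 0.25) and with untreated replicates 2 and 4 only for Ctsw, Ctsd, Cst7 and Lyst (adjusted p between 0.0563 and 0.133).

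Cytokine and chemokine genes held a pair of fallen members in resting cells. Of 23 tested, 2 fell (8.70%, against 1.05% of all tested genes) and 0 rose, with a median of -0.25. Ifng, the hallmark NK cytokine, had 205 and 169 CPM in the PGE2 libraries, against 221, 242, 211 and 196 CPM in the untreated libraries. Xcl1, which attracts dendritic cells, had 2149 and 1841 CPM in the PGE2 libraries, against 2679, 3012, 2811 and 2495 CPM in the untreated libraries. Ccl5, an abundant chemokine, had 2438 and 3313 CPM in the PGE2 libraries, against 3278, 3142, 3300.3 and 3611 CPM in the untreated libraries. Ifng and Ccl5 overlapped between groups and Xcl1 did not, and none was called (adjusted p = 0.72, 0.747 and 0.284). The fallen members were Ltb, lymphotoxin beta, with 142 and 146 CPM in the PGE2 libraries, against 278, 347, 272 and 331 CPM in the untreated libraries, and Flt3l, a growth factor of dendritic cells, with 19.01 and 19.99 CPM in the PGE2 libraries, against 39.97, 55.03, 54.3 and 55.7 CPM in the untreated libraries. Their log2 fold changes were -1.09 ± 0.21 and -1.38 ± 0.27. Of 28 immediate early, NF-kB and NFAT targets 3 rose and 3 fell (10.7% each, against 1.91% and 1.05% of all tested genes). Tnfaip3, which encodes the NF-kB inhibitor A20, had 347 and 248 CPM in the PGE2 libraries, against 85.8, 99.7, 99.1 and 91.4 CPM in the untreated libraries. It rose with Ier5l and Fosl2, while Egr1, Egr3 and Myc fell, and Nr4a1, an early gene of receptor signalling, had 27.7 and 33.03 CPM in the PGE2 libraries, against 37.1, 40.7, 37.2 and 41.5 CPM in the untreated libraries and was not called (adjusted p = 0.635). Egr3 lost its call without PGE2 replicate 4 (adjusted p = 0.189).

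**Figure D3:**
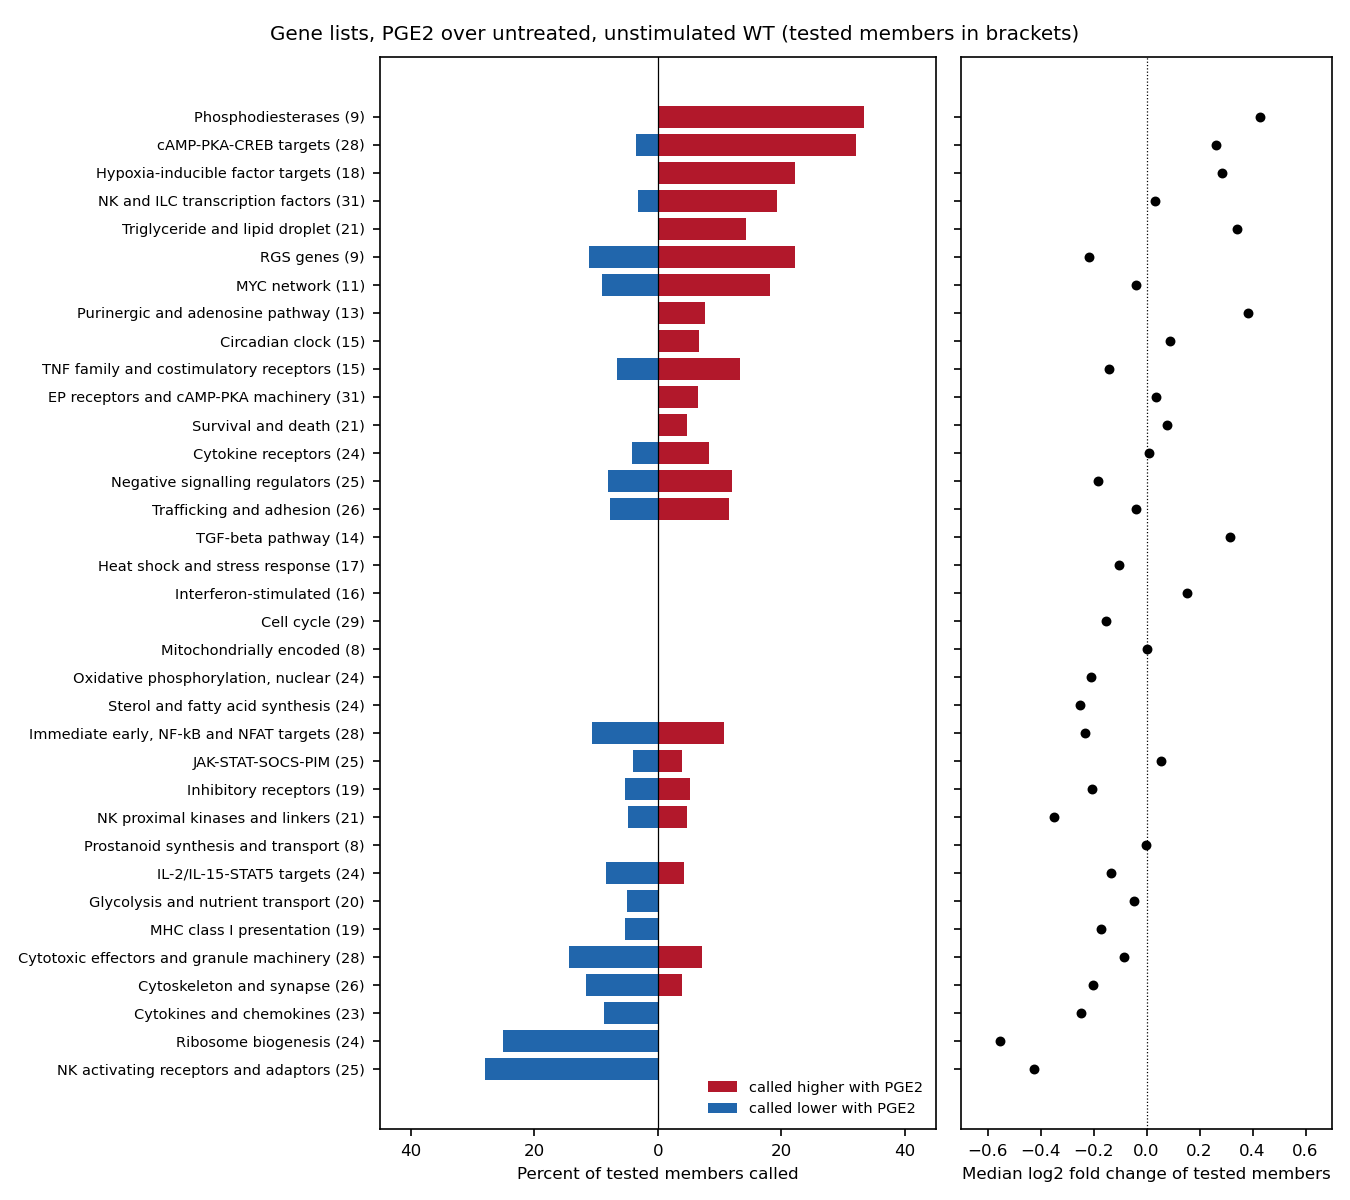
Left, the percentage of tested members of each of 35 gene lists called higher (red, right of 0) or lower (blue, left of 0) with PGE2; right, the median log2 fold change of all tested members. Phosphodiesterases and cAMP-PKA-CREB targets stand at the top, and ribosome biogenesis and NK activating receptors at the bottom. The lists were chosen with earlier results of these data known.

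Cytokine receptor genes and their signalling changed for a few members. Of 24 tested receptor genes Il12rb2 and Ifngr1 rose and Il27ra fell (8.33% and 4.17%, against 1.91% and 1.05% of all tested genes). Il12rb2, a chain of the IL-12 receptor, averaged 196 ± 6.57 CPM with PGE2 and 100.4 ± 17.9 CPM untreated (SD, n = 2 and 4; 0.97 ± 0.19, adjusted p = 0.000527). Il27ra, the IL-27 receptor, was at a few counts with PGE2, with 2.59 and 4.35 CPM in the PGE2 libraries, against 19.6, 22.3, 16.2 and 17.4 CPM in the untreated libraries. Its log2 fold change was -2.42 ± 0.48. Il27ra lost its call without PGE2 replicate 2 (adjusted p = 0.0726). Among 25 tested genes of the JAK, STAT, SOCS and PIM families, Stat3 rose and the kinase Pim2 fell (-1.32 ± 0.24, adjusted p = 0.000124), and 23 were not called. Thus 4% rose and 4% fell. The IL-2 and IL-15 targets of STAT5 held 24 tested genes, of which Pim2 and Myc fell (8.33%) and Dusp5 rose (4.17%).

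Transcription factors of NK cells and other innate lymphoid cells held 6 risen genes and 1 fallen gene among 31 tested (19.4% and 3.23%, against 1.91% and 1.05% of all tested genes), with a median of 0.03. Id2, a repressor of E proteins that innate lymphoid cells need, had 745 and 809 CPM in the PGE2 libraries, against 1251, 1432, 1308 and 1471 CPM in the untreated libraries. It fell in both PGE2 libraries below all untreated ones (-0.81 ± 0.15, adjusted p = 0.00018). The risen genes were Ikzf2 (Helios) at 1.37 ± 0.26, Myb at 1.47 ± 0.29, Foxo1 at 0.93 ± 0.17, Rora at 0.87 ± 0.23, Bach2 at 0.98 ± 0.20 and Nfil3 at 0.91 ± 0.25. Myb, linked to immature lymphoid cells, had 175 and 127 CPM in the PGE2 libraries, against 45.1, 55.8, 68.6 and 49.01 CPM in the untreated libraries. Foxo1, which keeps lymphocytes quiescent, had 95.9 and 117 CPM in the PGE2 libraries, against 53.8, 56.6, 57.2 and 55.7 CPM in the untreated libraries. Neither gene overlapped between groups. Eomes and Tbx21, the master factors of NK cells named here for that role, had log2 fold changes of -0.34 ± 0.17 and -0.38 ± 0.26 and were not called (adjusted p = 0.351 and 0.555). The threshold was missed without PGE2 replicate 2 for Myb, Rora and Bach2 (adjusted p between 0.0992 and 0.361) and without PGE2 replicate 4 for Foxo1 and Rora (adjusted p between 0.0617 and 0.0632). Losses were also seen without untreated replicate 1 for Rora (adjusted p = 0.0545) and without untreated replicate 4 for Rora (adjusted p = 0.0706).

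Genes of ribosome assembly and growth held mostly fallen calls. Of 24 tested ribosome biogenesis genes 6 fell (25%, against 1.05% of all tested genes) and 0 rose, with a median of -0.55. In EP2KO cells 12 of them fell, in DKO cells 0 and in stimulated WT cells 20, with medians of -0.61, -0.10 and -0.70. The 6 in unstimulated WT were Utp4, Gnl3, Nhp2, Dkc1, Wdr43 and Nop58, at -1.0004 ± 0.25, -0.85 ± 0.19, -0.79 ± 0.22, -0.65 ± 0.17, -0.65 ± 0.18 and -0.62 ± 0.18. Gnl3, which encodes nucleostemin, had 75.2 and 66.1 CPM in the PGE2 libraries, against 111, 137, 127 and 135 CPM in the untreated libraries. Dkc1, which modifies ribosomal RNA, had 82.1 and 101 CPM in the PGE2 libraries, against 117, 169, 138 and 150.4 CPM in the untreated libraries. Neither overlapped between groups. Myc, the growth-promoting transcription factor, had 15.6 and 19.99 CPM in the PGE2 libraries, against 52.3, 60.6, 43.8 and 55.7 CPM in the untreated libraries, and fell at -1.58 ± 0.30, adjusted p = 0.000213. Of 11 tested genes of the MYC network the MAX partners Mxd1 and Mxi1 rose (18.2%, against 1.91% of all tested genes) while Myc fell (9.09%). The test was not passed without PGE2 replicate 2 for Utp4, Nhp2, Dkc1, Nop58, Mxd1 and Slc1a5 (adjusted p between 0.127 and 0.601) and without PGE2 replicate 4 for Utp4, Gnl3, Nhp2, Wdr43, Nop58 and Slc1a5 (adjusted p between 0.0575 and 0.368). More calls were lost without untreated replicate 2 for Nhp2, Dkc1 and Nop58 (adjusted p between 0.0626 and 0.11) and without untreated replicate 4 for Nhp2 and Wdr43 (adjusted p between 0.0522 and 0.0822). Calls also ended with no count filter for Utp4, Dkc1, Wdr43, Nop58 and Slc1a5 (adjusted p between 0.0559 and 0.096) and with untreated replicates 2 and 4 only for Nhp2 and Slc1a5 (adjusted p between 0.0614 and 0.0637). Of 29 cell cycle, 24 nuclear respiratory chain, 17 heat shock and 16 interferon-stimulated genes tested, edgeR and DESeq2 called 0, with 4 cell cycle, 2 respiratory chain, 3 heat shock and 1 interferon-stimulated gene at an unadjusted p under 0.05. Of 20 tested glycolysis and nutrient transport genes only the glutamine carrier Slc1a5 was called (5%), at -0.78 ± 0.20.

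Migration, adhesion and cytoskeletal genes changed in both directions. Cxcr4, which retains cells in bone marrow, had 60.5 and 42.6 CPM in the PGE2 libraries, against 23.3, 19.1, 19.1 and 14.1 CPM in the untreated libraries. Gpr183, which guides cells along oxysterols, had 108 and 103 CPM in the PGE2 libraries, against 46.5, 55.03, 50.5 and 54.00 CPM in the untreated libraries. P2ry10, a receptor for lysophospholipids, had 312 and 321 CPM in the PGE2 libraries, against 96.7, 106, 114 and 95.5 CPM in the untreated libraries. These rose by log2 fold changes of 1.44 ± 0.31, 1.04 ± 0.19 and 1.62 ± 0.16, with no overlap. Among 26 trafficking genes the integrin Itgax and the early activation antigen Cd69 fell (-1.01 ± 0.24 and -0.96 ± 0.21). In this list 11.5% rose and 7.69% fell, against 1.91% and 1.05% of all tested genes. Chn2, which inactivates the GTPase Rac, had 12.96 and 9.56 CPM in the PGE2 libraries, against 46.5, 53.4, 44.8 and 61.5 CPM in the untreated libraries, a log2 fold change of -2.18 ± 0.30, adjusted p = 2.30e-07. Of 26 cytoskeletal genes Pfn1 and Coro1a fell with it, near the threshold (adjusted p = 0.0471 and 0.0286), and Arpc3 rose (adjusted p = 0.0363). Thus 11.5% of these genes fell and 3.85% rose. Significance was lost without PGE2 replicate 2 for Cxcr4, Cd69, Pfn1 and Coro1a (adjusted p between 0.175 and 0.678) and without PGE2 replicate 4 for Itgax, Pfn1, Coro1a and Arpc3 (adjusted p between 0.0785 and 0.409). Losses were also seen without untreated replicate 1 for Pfn1, Coro1a and Arpc3 (adjusted p between 0.061 and 0.0972), without untreated replicate 2 for Pfn1 and Arpc3 (adjusted p between 0.0504 and 0.0878), without untreated replicate 3 for Arpc3 (adjusted p = 0.0866) and without untreated replicate 4 for Pfn1 and Coro1a (adjusted p between 0.0911 and 0.116). The threshold was also missed with no count filter for Pfn1 and Coro1a (adjusted p between 0.216 and 0.361), with only the 6 libraries fitted for Coro1a (adjusted p = 0.0846) and with untreated replicates 2 and 4 only for Pfn1, Coro1a and Arpc3 (adjusted p between 0.114 and 0.238).

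The remaining large falls included genes with roles in signalling and metabolism. Asb2, a subunit of a ubiquitin ligase, had 7.78 and 15.6 CPM in the PGE2 libraries, against 59.6, 63.8, 38.1 and 55.7 CPM in the untreated libraries. Coro2a, a coronin, had 33.7 and 39.98 CPM in the PGE2 libraries, against 107, 128, 93.4 and 109.7 CPM in the untreated libraries. Both were lower in each PGE2 library than in any untreated one (-2.21 ± 0.38 and -1.57 ± 0.22), which the choice of the largest falls required. Serpina3f, of a large serpin cluster with similar copies, fell at -2.35 ± 0.57, the phosphoinositide phosphatase Inpp4b at -1.41 ± 0.31, the lectin Cd72 at -1.47 ± 0.35, the folate enzyme Mthfd1 at -1.44 ± 0.37, the ribosomal oxygenase Riox2 at -1.41 ± 0.27 and the mTOR complex subunit Prr5 at -1.40 ± 0.34. In absolute terms Cd52, a small surface glycoprotein, had 842 and 1083 CPM in the PGE2 libraries, against 1633, 1688, 1584 and 1800.2 CPM in the untreated libraries, and Ptprcap, which binds the phosphatase CD45, had 247 and 254 CPM in the PGE2 libraries, against 491, 447, 500.2 and 495 CPM in the untreated libraries. Their log2 fold changes were -0.80 ± 0.23 and -0.95 ± 0.17. Bcl2l11, which encodes the death-promoting protein BIM, rose at 0.90 ± 0.16, adjusted p = 7.71e-05. Icos, a costimulatory receptor, had 143 and 150.4 CPM in the PGE2 libraries, against 71.9, 70.2, 68.6 and 61.5 CPM in the untreated libraries (1.11 ± 0.16, adjusted p = 1.42e-06), and the TNF receptor Tnfrsf1b rose at 0.66 ± 0.15. Ighm fell at -1.19 ± 0.24, adjusted p = 0.000439. Calls were lost without PGE2 replicate 2 for Serpina3f, Cd72, Mthfd1, Riox2, Prr5, Cd52 and Bcl2l11 (adjusted p between 0.0865 and 0.591) and without PGE2 replicate 4 for Serpina3f, Inpp4b, Cd72, Mthfd1, Cd52, Tnfrsf1b and Ighm (adjusted p between 0.0575 and 0.144). More calls were lost without untreated replicate 2 for Cd52 (adjusted p = 0.0602) and without untreated replicate 4 for Cd52 (adjusted p = 0.0831). Further losses came with no count filter for Tnfrsf1b (adjusted p = 0.114) and with untreated replicates 2 and 4 only for Mthfd1, Prr5 and Cd52 (adjusted p between 0.0832 and 0.206).

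The other lists held few calls. Of 15 tested TNF family and costimulatory receptor genes Icos and Tnfrsf1b rose and Tnfsf8, the ligand of CD30, fell at -0.83 ± 0.24. In this list 13.3% rose and 6.67% fell, against 1.91% and 1.05% of all tested genes. Of 19 MHC class I presentation genes only Psmb10, an immunoproteasome subunit, was called (5.26%), at -0.60 ± 0.16. Of 21 survival and death genes only Bcl2l11 was called (4.76%), and of 15 circadian clock genes only Rora (6.67%). On the list of 13 purinergic pathway genes only P2ry10 was called (7.69%). Since P2ry10 is a receptor for lysophospholipids, as given above, that call is not one of a purine receptor. Of 14 tested TGF-beta pathway genes and 8 mitochondrially encoded genes, edgeR and DESeq2 called 0, with 4 and 1 at an unadjusted p under 0.05. Among 7 tested T cell markers 1 rose (14.3%, against 1.91% of all tested genes) and 0 fell, with a median of -0.32. The riser was Cd6, a scarce surface receptor, at 2.08 ± 0.51. On the scale of the marker sums Cd6 had 9.42 and 10.3 CPM with PGE2, against 0.721, 1.58, 4.73 and 2.47 CPM untreated. Cd3d, Cd3g and Trac were lower in both PGE2 libraries, Trbc1 and Trbc2 overlapped, and DESeq2 called 0 of the 7. The threshold was missed without PGE2 replicate 2 for Tnfsf8, Psmb10 and Cd6 (adjusted p between 0.0865 and 0.281) and without PGE2 replicate 4 for Tnfsf8, Psmb10 and Cd6 (adjusted p between 0.106 and 0.322). Losses were also seen without untreated replicate 1 for Cd6 (adjusted p = 0.0686), without untreated replicate 2 for Tnfsf8 (adjusted p = 0.0989) and without untreated replicate 4 for Tnfsf8 and Psmb10 (adjusted p between 0.057 and 0.0719). Calls ended too with no count filter for Psmb10 (adjusted p = 0.167), with only the 6 libraries fitted for Cd6 (adjusted p = 0.0537) and with untreated replicates 2 and 4 only for Psmb10 (adjusted p = 0.0614).

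The genes called in WT were then read in EP2KO cells, whose libraries are outside the contrast that chose them but share its fit, and with it the scaling and the estimate of spread. PGE2 changed 188 genes higher and 150 lower there, 1.75% and 1.40% of those tested. Of the 205 genes risen in WT, 201 had the same sign in EP2KO and 129 were called the same way, which is 62.9% of the WT genes and 68.6% of the EP2KO genes. Of the 113 fallen genes, 110 had the same sign and 65 were called, 57.5% of the WT and 43.3% of the EP2KO genes. No gene was called the opposite way. The median log2 fold changes were 0.77 in EP2KO for the risen genes, against 0.98 in WT, and -0.65 in EP2KO for the fallen genes, against -0.97 in WT, where the same libraries chose the genes. A test of the EP2KO minus WT difference called 0 genes by edgeR (0% of those tested) and 0 by DESeq2, with 272 at an unadjusted p under 0.05. Crem averaged 321 ± 68.4 CPM with PGE2 and 71.3 ± 8.73 CPM untreated in EP2KO cells (SD, n = 4 each; 2.17 ± 0.19). Stat3 averaged 548 ± 89.5 CPM with PGE2 and 176 ± 23.2 CPM untreated (1.64 ± 0.13), and Ncr1 averaged 107 ± 19.9 CPM with PGE2 and 244 ± 45.6 CPM untreated (-1.18 ± 0.16).

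In DKO cells PGE2 called 0 genes by edgeR (0% of those tested) and 0 by DESeq2, with 184 at an unadjusted p under 0.05. Of the 205 genes risen in WT, 164 had a positive sign in DKO, with a median of 0.12. Of the 113 fallen genes 77 had a negative sign, with a median of -0.04. The DKO minus WT difference was called for 52 genes, 19 higher and 33 lower (0.177% and 0.308% of those tested). All 33 lower differences were among the genes risen in WT and all 19 higher ones among the fallen, with the WT libraries entering both the choice and the difference. Stat3 averaged 253 ± 42.8 CPM with PGE2 and 202 ± 26.2 CPM untreated in DKO cells (SD, n = 3 each), and its effect was 0.33 ± 0.15 in DKO, against 1.99 ± 0.15 in WT. That difference was -1.66 ± 0.22, adjusted p = 1.58e-06. Ptpn6 averaged 126 ± 3.97 CPM with PGE2 and 138 ± 22.8 CPM untreated, with a difference of 1.75 ± 0.25, adjusted p = 6.16e-06. The smallest p-values also included a lower difference for Parp8 (-1.79 ± 0.28) and higher ones for Ncr1 (1.57 ± 0.27) and Coro2a (1.55 ± 0.28). The count of 52 fell to 21 without WT PGE2 replicate 2, to 24 without WT PGE2 replicate 4, to 31 without WT untreated replicate 4, to 28 without DKO PGE2 replicate 1, and to 30 without DKO untreated replicate 1 or replicate 3.

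The targeted genes do not check these labels. Ptger2 had 4, 8, 4 and 7 counts in PGE2 and 4, 7, 3 and 4 counts in untreated EP2KO libraries. In DKO libraries it had 7, 3 and 4 counts with PGE2 and 5, 4 and 3 untreated, and in WT 5 and 7 with PGE2 and 10, 7, 4 and 4 untreated. Ptger4 had 45, 50 and 56 counts with PGE2 and 51, 55 and 63 untreated in DKO libraries, against 30 and 16 with PGE2 and 20, 37, 23 and 30 untreated in WT. EP2KO libraries had 23, 17, 16 and 24 Ptger4 counts with PGE2, all below the 40, 40, 33 and 30 untreated. The Ptger2 counts of EP2KO and DKO cells overlapped those of WT cells, and every Ptger4 count in DKO cells was above every one in WT cells. The reads are 3' tags, and whether the deleted part of either gene holds the tagged end is not given in the sources used here.

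**Figure D4:**
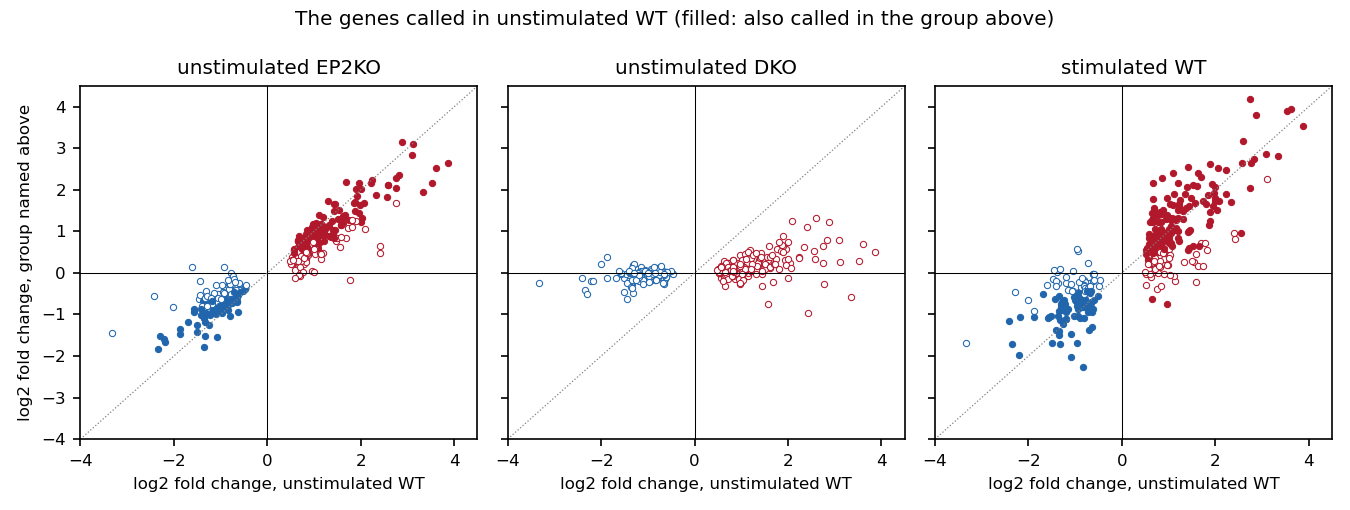
The 318 genes called in unstimulated WT, with their log2 fold change there on the x axis and in unstimulated EP2KO, unstimulated DKO or stimulated WT cells on the y axis; red genes rose and blue genes fell in unstimulated WT, and filled points were also called in the panel's group. In EP2KO 129 red and 65 blue points are filled, in DKO none is filled and the medians are 0.12 and -0.04, and in stimulated WT 151 red and 71 blue points are filled.

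Part of the PGE2 response was also seen in stimulated WT cells. These cells are recorded with 1 h of treatment and then 4 h of antibody, and unstimulated cells with 5 h of treatment. Whether treatment went on during the antibody was not established here. Stimulation and treatment time therefore cannot be told apart in any comparison with unstimulated cells. In stimulated WT cells, with libraries of their own, PGE2 changed 643 genes higher and 1033 lower, 6.00% and 9.63% of those tested. Of the 205 genes risen in unstimulated cells 191 had the same sign and 151 were called the same way, 73.7% of them and 23.5% of the 643. Of the 113 fallen genes 106 had the same sign and 71 were called, 62.8% of them and 6.87% of the 1033. Only 2 genes, Gna13 and Arfgap3, named after their values were seen, were called the opposite way. Gna13, a G protein alpha subunit, had -0.63 ± 0.13 in stimulated and 0.64 ± 0.17 in unstimulated cells, and Arfgap3, which acts in Golgi transport, had -0.74 ± 0.18 in stimulated and 0.96 ± 0.24 in unstimulated cells. The test was not passed without PGE2 replicate 2 for Gna13 (adjusted p = 0.462) and without PGE2 replicate 4 for Arfgap3 (adjusted p = 0.343). More calls were lost without untreated replicate 1 for Gna13 and Arfgap3 (adjusted p between 0.0545 and 0.0686) and without untreated replicate 4 for Gna13 (adjusted p = 0.052). Calls also ended with no count filter for Gna13 and Arfgap3 (adjusted p between 0.141 and 0.146), with only the 6 libraries fitted for Arfgap3 (adjusted p = 0.0571) and with untreated replicates 2 and 4 only for Gna13 and Arfgap3 (adjusted p between 0.0538 and 0.0709).

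The stimulated minus unstimulated difference of the PGE2 effect was called for 140 genes, 49 higher and 91 lower (0.457% and 0.849% of those tested). Of the 205 risen genes 6 had a higher and 12 a lower difference, and of the 113 fallen genes 7 had a higher and 1 a lower one. Rgs1 averaged 509.9 ± 22.99 CPM with PGE2 and 456 ± 52.6 CPM untreated in stimulated cells (SD, n = 4 each). Its effect was 0.16 ± 0.14 in stimulated cells, against 1.62 ± 0.18 in unstimulated cells, a difference of -1.46 ± 0.23, adjusted p = 6.39e-05. In unstimulated cells Rgs1 averaged 464 ± 20.2 CPM with PGE2 and 151 ± 19.8 CPM untreated. Ifngr1 went the other way, with 1023 ± 107 CPM with PGE2 and 228 ± 40.6 CPM untreated in stimulated cells. The effect on Ifngr1 was 2.16 ± 0.15 in stimulated and 0.66 ± 0.17 in unstimulated cells, differing by 1.499 ± 0.23, adjusted p = 3.66e-05. The fall of Ncr1 was smaller in stimulated cells, at -0.51 ± 0.16 in stimulated cells, against -1.69 ± 0.21 in unstimulated cells (difference 1.18 ± 0.26, adjusted p = 0.00436). Ifng was lower with PGE2 in stimulated cells, at 525 ± 17.3 CPM with PGE2 and 1888 ± 647 CPM untreated, and differed from the uncalled effect in unstimulated cells by -1.63 ± 0.29, adjusted p = 0.000383. Among genes not called in unstimulated cells, the difference was higher for the phosphatase Ptpn12 (1.14 ± 0.20) and the inhibitory receptor Klrb1b (1.17 ± 0.22) and lower for the chemokine Ccl1 (-2.27 ± 0.31) and the kinase Jak2 (-1.90 ± 0.27). The count of 140 fell to 33 without unstimulated PGE2 replicate 2 and to 69 without unstimulated PGE2 replicate 4.

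**Figure D5:**
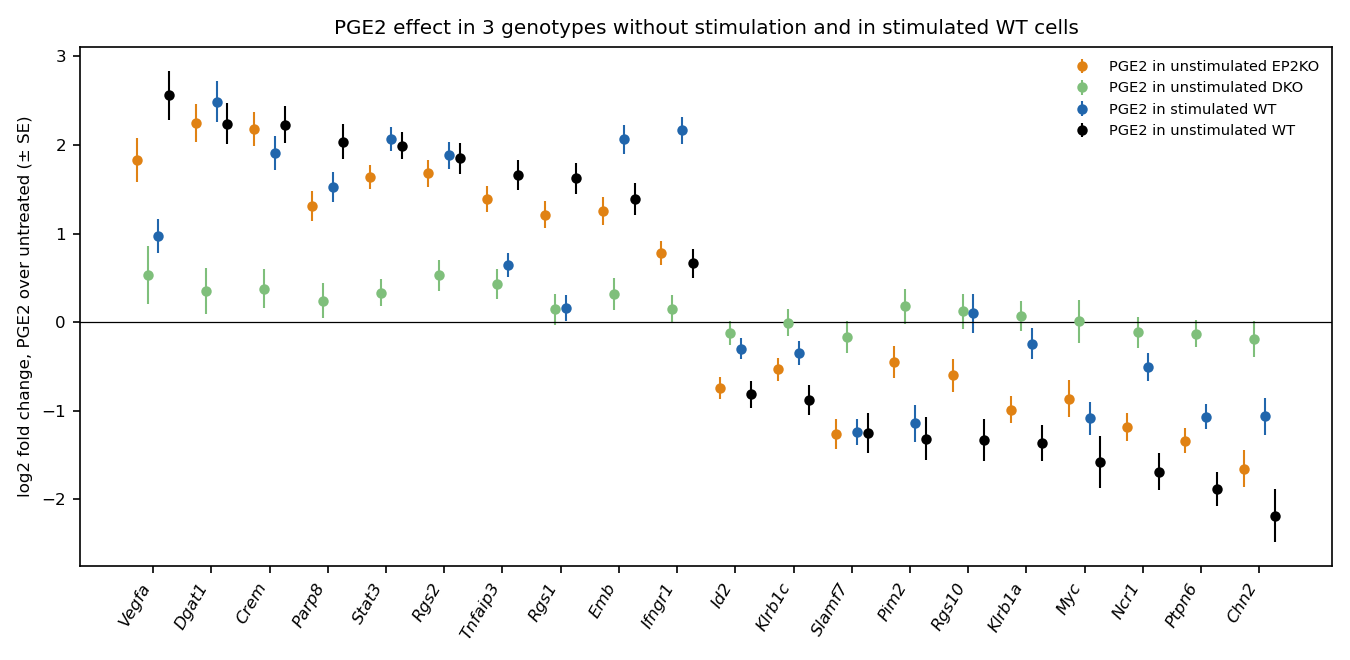
Log2 fold change of PGE2 over untreated (± SE of the fit) for 20 genes in unstimulated EP2KO, unstimulated DKO, stimulated WT and unstimulated WT cells. The DKO values lie closer to 0 than the unstimulated WT values for all 20 genes, and Rgs1, Vegfa, Ncr1 and Ifngr1 differ between stimulated and unstimulated WT cells.

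CM was compared with PGE2 in a direct contrast of the libraries, since both effects against untreated cells share the 4 untreated libraries. The CM minus PGE2 contrast called 0 genes by edgeR (0% of those tested) and 0 by DESeq2, with 295 at an unadjusted p under 0.05, which does not show that they act alike. Crem averaged 347 ± 62.7 CPM with CM (SD, n = 4) and 413 ± 94.8 CPM with PGE2 (n = 2). Vegfa averaged 48.2 ± 7.36 CPM with CM and 51.1 ± 5.92 CPM with PGE2, and Ncr1 averaged 73.2 ± 7.91 CPM with CM and 85.8 ± 3.33 CPM with PGE2. Against the shared untreated libraries the effects on Crem were 1.98 ± 0.19 with CM and 2.23 ± 0.21 with PGE2. For Klrb1a they were -0.79 ± 0.16 with CM and -1.37 ± 0.20 with PGE2, and the direct difference of 0.58 ± 0.21 was not called (adjusted p = 1).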

How the data were processed

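The deposited table holds raw counts per gene symbol that the authors made from 3' mRNA sequencing libraries with barcodes and molecular identifiers, per the labels' protocols. The submitters' processing notes name GRCm38, mm10 and DESeq2. The aligner, the counting strand, and whether counts are molecules or reads are, in the sources used here, not given, so antisense and near-identical genes are uncertain.

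All 64 libraries were fitted together in edgeR 4.0.16 (R 4.3.3, limma 3.58.1) with TMM scaling, a mean per group and a robust quasi-likelihood test. Genes were kept by filterByExpr at a minimum count of 10, which held 99.2% of the counts. P-values were Benjamini-Hochberg adjusted over all 10723 tested genes. Errors of log2 fold changes are SEs of the fit, and CPM errors are SDs. Group differences of effects are contrasts of the same fit. No pair among the 64 libraries held identical counts, and every pair differed by more than sampling noise in a chi-square comparison (at least 1.30 per degree of freedom). The test was also run on simulated counts, drawn independently for each library with no effect shared by a replicate number. That run cannot speak to such an effect in the real libraries.

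Named genes were the 15 largest called rises and the 15 largest called falls with non-overlapping libraries and a mean log2 CPM of 4 or more, the 5 largest CPM gains and losses, up to 4 called genes with the smallest p per list, and 11 fixed genes. Further members of a list, and genes said to be named for a role, were added after their values were seen. A few genes that these rules name are not reported here. The members and lists were chosen with earlier results of these data known. Gene positions are from GENCODE M21 on GRCm38 (10575 of 10723 symbols matched), and promoter windows from RefSeq on GRCm38.p6. The alternatives were RLE scaling, no count filter, a floor of 20 CPM, DESeq2 1.42.0, fewer libraries in the fit, a replicate block, untreated replicates 2 and 4 only, leaving out each library, and leaving out both replicate 2 libraries. The main test used no replicate block, and the counts with a block are given below. Replicates 2 and 4 are the numbers shared by the groups, and with only 2 pairs their pairing was not established from these libraries. Across every WT group, replicate 2 had the highest neutrophil and the lowest NK cell marker sum, so libraries of that number shared a trait.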

Additional observations from a re-analysis of the deposited data

Results flagged for a closer look

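The effect of PGE2 differed between DKO and WT unstimulated cells for 27 of the 128 genes examined one by one (edgeR interaction test, adjusted over all genes tested). The log2 difference, DKO minus WT, was above 0 for Il27ra (2.31), Asb2 (2.01), Chn2 (1.996), Ptpn6 (1.75), Myc (1.59), Ncr1 (1.57), Coro2a (1.55), Pim2 (1.495), Riox2 (1.46), Rgs10 (1.45), Klrb1a (1.43), Flt3l (1.39) and Ptprcap (0.94). It was below 0 for Bend4 (-3.24), Vegfa (-2.03), Trf (-1.95), Dgat1 (-1.89), Crem (-1.85), Parp8 (-1.79), Stat3 (-1.66), Abcb1b (-1.61), Rgs1 (-1.48), Rgs2 (-1.32), P2ry10 (-1.25), Tnfaip3 (-1.23), Emb (-1.07) and Hif1a (-0.91). Each of these genes was called in WT by libraries that also enter the difference. The EP2KO minus WT difference was called for 0 of the same 128 genes by edgeR.

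The effect also differed between stimulated and unstimulated WT cells for 19 of the 128 genes. Of these 19, Ptpn12, Klrb1b, Ccl1 and Jak2 were among the genes examined because of their small p-values in this same difference. The log2 difference, stimulated minus unstimulated, was above 0 for Ifngr1 (1.499), Mxi1 (1.43), Rgs10 (1.43), Flt3l (1.40), Ncr1 (1.18), Klrb1b (1.17), Ptpn12 (1.14), Klrb1a (1.12) and Pik3r1 (0.77). It was below 0 for Ccl1 (-2.27), Jak2 (-1.90), Arfgap3 (-1.70), Ifng (-1.63), Vegfa (-1.59), Rgs1 (-1.46), Tnfsf8 (-1.44), Gna13 (-1.27), Serpinb6b (-1.16) and Tnfaip3 (-1.02). Each setting lasted 5 h in all, with 1 h of treatment and then 4 h of antibody in the stimulated cells. Whether treatment went on during the antibody was not established here, so stimulation and treatment time cannot be told apart.

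One untreated library stood apart from the other 3 by Dixon's test at its 95% level for 8 of 126 quantities examined, where chance alone gives about 1 in 20. These were Arrb1 (23.98 CPM in replicate 1, next 16.7 CPM), Bach2 (49.8 CPM in replicate 4, next 67.6 CPM), Flt3l (39.97 CPM in replicate 1, next 54.3 CPM), Gna13 (74.3 CPM in replicate 3, next 67.8 CPM), Pde4b (45.1 CPM in replicate 1, next 54.3 CPM), Ptprcap (447 CPM in replicate 2, next 491 CPM), Serpina3f (55.03 CPM in replicate 2, next 33.4 CPM) and Utp4 (23.8 CPM in replicate 3, next 34.3 CPM).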

How the results depend on the processing

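For unstimulated WT cells, 318 genes (205 higher, 113 lower) became 320 with RLE scaling, 243 with no count filter, 340 with DESeq2, 393 with only the 6 libraries and 344 with the floor of 20 CPM. The count moved further when only the 10 unstimulated WT libraries were fitted (531 genes, 310 higher and 221 lower) and when only untreated replicates 2 and 4 were kept (198 genes, 119 higher and 79 lower). With a replicate block within genotype it was 679 (404 higher, 275 lower). The block also moved the EP2KO count to 646, the DKO minus WT difference to 175, the stimulated minus unstimulated difference to 367 and the CM minus PGE2 contrast to 1. The block ended 1 named call, that of Sik3. Same-numbered libraries had correlations of deviations of 0.293 (replicate 2) and 0.251 (replicate 4). Pairs of unlike number reached similar values: 0.261 for PGE2 replicate 4 with untreated replicate 1, and 0.189 for PGE2 replicate 2 with untreated replicate 3. With 2 PGE2 libraries the deviations mirror each other, so each untreated library gives the same value with opposite signs. These correlations do not settle the pairing. The labels do not say what a number marks. In all 6 WT groups, though, replicate 2 had the highest neutrophil and the lowest NK cell marker sum. With both replicate 2 libraries left out, chosen after seeing the data, the count was 99 (73 higher, 26 lower).

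Leaving out 1 library gave 132 to 320 called genes in WT (96 to 197 higher, 36 to 123 lower), 227 to 304 in EP2KO, 0 in DKO, 1326 to 1774 in stimulated WT, 0 for the EP2KO minus WT difference, 21 to 51 for DKO minus WT, 33 to 157 for stimulated minus unstimulated and 0 for CM minus PGE2. For genes with no call, the log2 fold change turned sign with 1 library left out, and ran between -0.25 (without PGE2 replicate 4) and 0.25 for Ptger2, between -0.082 (without PGE2 replicate 4) and 0.22 for Gnas, between -0.70 and 0.18 (without PGE2 replicate 4) for Ptger4, and between -0.20 and 0.057 (without PGE2 replicate 2) for Prf1, which was at 0.018 without both replicate 2 libraries. Ptger2 was also at -0.073 and -0.13 without untreated replicate 3 and 4. The cause of these changes was not tested, beyond the fewer libraries in each fit. With 1 PGE2 library left, its spread is assumed to match that of the other groups. At about 1 count per CPM, the log2 fold change of the scarce Ptger2 had an SE of 0.47, so a small change in it could not be told from 0.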
